A study of Mus musculus with 5 samples.

Results

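The endoplasmic reticulum (ER) stress and folding genes followed here are 34 genes of the unfolded protein response, the ER chaperones, the ER degradation machinery and the integrated stress response, read in RNA of mouse peritoneal cells. They were taken by symbol from a table of 22815 listed genes, and all 34 symbols were present. The rule that names them is a list of symbols and uses no measured value, but the list was chosen with earlier results of these data known. Shares of these genes set against all genes tested are therefore descriptions. All 34 reached 1 FPKM (read fragments scaled to transcript length and library size) in at least 1 library and so entered the test of 11117 genes, Derl3 only through the PBS library, Trib3 only through the WT pristane libraries and Chac1 only through 1 Irf8KO-labelled library.

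Proteins that are secreted or sit in membranes are folded inside the ER, where the chaperone Hspa5 (BiP) and its partners hold unfolded chains, lectins monitor sugar-bearing proteins and disulfide isomerases join cysteines. When folding falls behind, the sensors Ern1 (IRE1), Eif2ak3 (PERK) and Atf6 start the unfolded protein response: Ern1 splices Xbp1 mRNA into its active form, Atf6 is cut into a transcription factor, and Eif2ak3 slows translation while favouring that of Atf4. The last of these arms is shared with the responses to amino acid shortage and to viral RNA and is then called the integrated stress response. Antibody-secreting cells depend on Xbp1, and macrophages and neutrophils also make large amounts of secreted and lysosomal protein.

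Peritoneal lavage of mice aged 8 weeks gave the cells, whose RNA was sequenced by Smart-seq2, a low-input method for polyadenylated RNA. There was 1 library from wild-type C57BL/6 mice given phosphate-buffered saline (WT PBS), 2 from wild-type mice given pristane, a hydrocarbon oil that sets off lasting peritoneal inflammation (WT pristane), and 2 from Irf8-deficient mice given pristane (labelled Irf8KO pristane). Irf8 is a transcription factor of monocyte and dendritic cell development; the allele, its strain background, the dose and the time after pristane are not stated in the labels, and no Irf8-deficient PBS library was analysed here. The labels do not say whether replicates were separate animals or pools, so p-values measure the spread between libraries, and the PBS group, with 1 library, borrows its spread from the pristane pairs.

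Irf8 RNA was on average not lower in the Irf8KO-labelled libraries than in WT pristane. It stood at 63.3 and 48.7 FPKM in WT pristane and at 120.5 and 59.4 FPKM in the Irf8KO-labelled libraries (log2 change 0.60 ± 0.41 SE, limma adjusted p = 0.471). Values per gene do not show whether a transcript is intact, so they cannot check the genotype. Those libraries are therefore called by their label throughout. The X-linked Xist, a female transcript, reached 43.5 FPKM with PBS and 8.81 in WT pristane replicate 2, and was at or near 0 in the other 3 libraries. The Y-linked Eif2s3y stood at 0 FPKM with PBS, 12.9 and 0 in WT pristane, and 23.2 and 25.6 in the Irf8KO-labelled libraries. By these genes the sex of the mice differed between the WT pristane replicates. In Irf8KO pristane against WT PBS, sex and group cannot be told apart. The steps between the lowest values corresponded to about 2273000 to 5000000 fragments per library, and 1 fragment on 1 kb was worth 0.2 to 0.44 FPKM. The cells differed between groups: 10 neutrophil marker genes summed to 171 FPKM with PBS and to 15768 to 48596 FPKM in the pristane libraries. Large peritoneal macrophage markers (10 genes) summed to 2553 FPKM with PBS, 116 and 148 in WT pristane, and 1299 and 2031 in the Irf8KO-labelled libraries. Mast cell markers (8 genes) summed to 319 FPKM with PBS and to 2.36 to 4.67 FPKM in the pristane libraries. In RNA from mixed cells, fewer cells of a type and less RNA per cell cannot be told apart.

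Most of these genes were well expressed, and most varied less than 3-fold between libraries. FPKM is scaled to transcript length, so levels can be set beside each other: 22 of the 34 stood at 10 FPKM or more in every library, and 4 of them, P4hb, Hspa5, Pdia3 and Calr, at 100 FPKM or more. For 13 genes the highest library was less than 2 times the lowest, and for 25 less than 3 times. The same shares over all genes tested were not computed. The 34 genes together held 0.385% of the summed FPKM with PBS, 0.421% and 0.606% in WT pristane, and 0.394% and 0.526% in the Irf8KO-labelled libraries. Within both pristane groups replicate 2 had the larger share. The plot of levels by library gives every value.

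**Figure D1:**
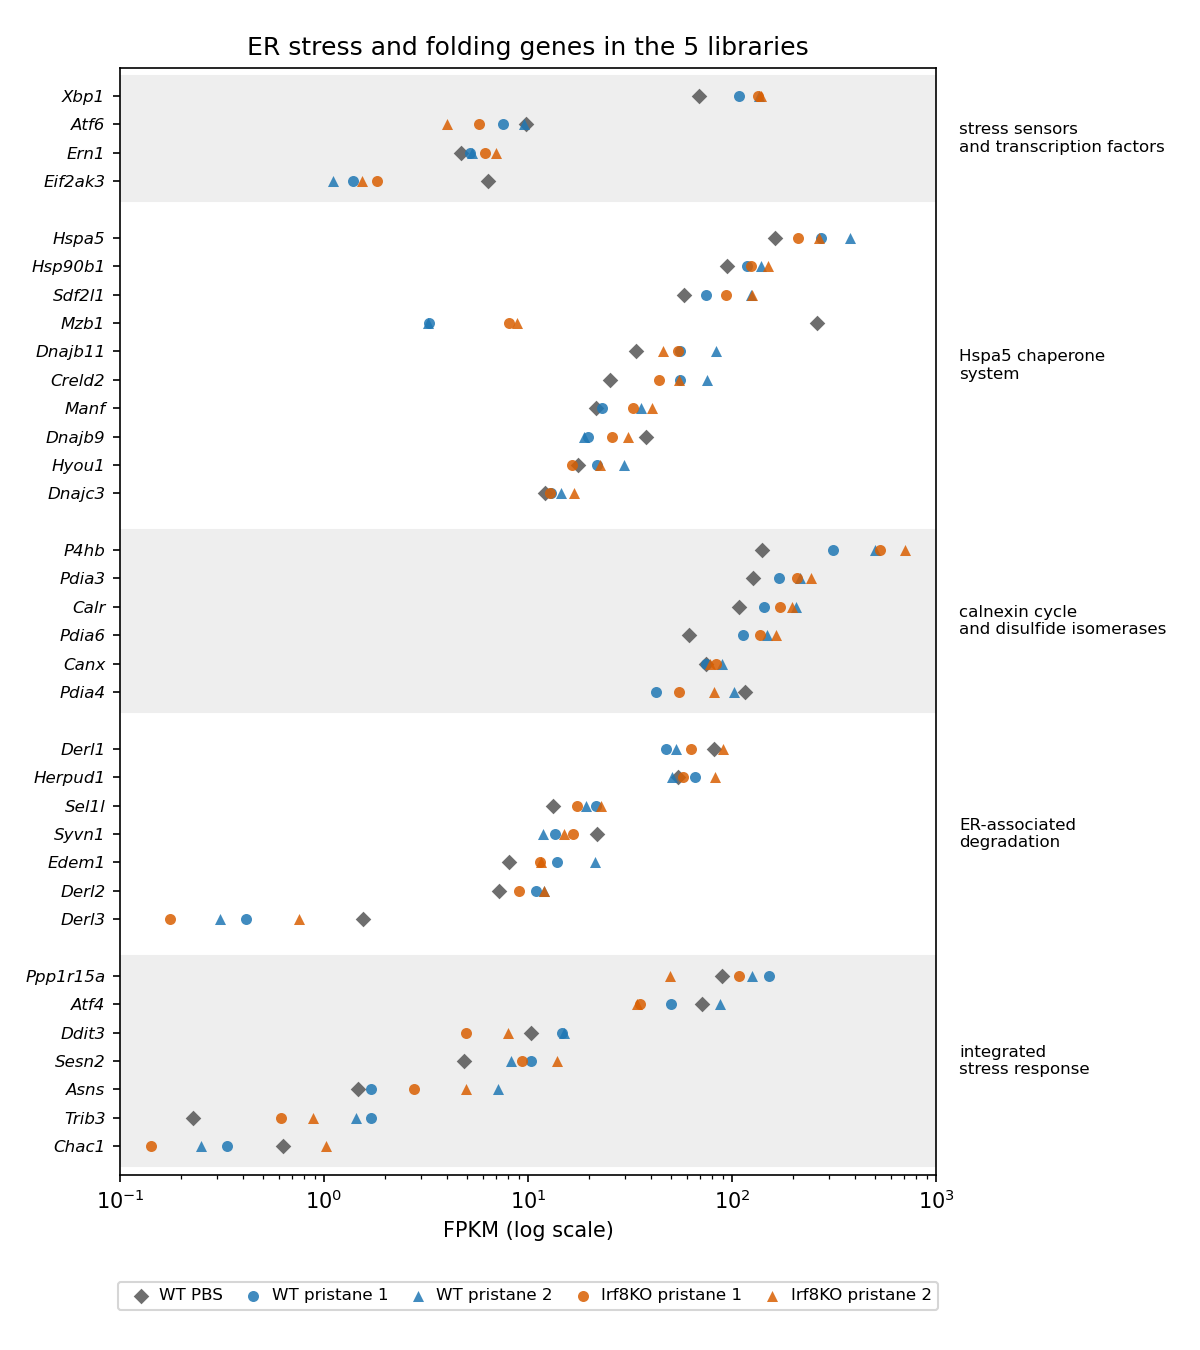
FPKM (log scale, horizontal) of the 34 genes, grouped by role, in the PBS library (grey diamonds), the WT pristane libraries (blue) and the Irf8KO-labelled libraries (orange), with circles for replicate 1 and triangles for replicate 2. Most rows span less than 3-fold, while Mzb1 and Eif2ak3 have the PBS library far to the right of the other 4.

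WT pristane against WT PBS asks which genes differed after the oil in the peritoneal cells of wild-type mice. Mzb1, a cofactor of the ER chaperones in B-lineage cells, and the sensor Eif2ak3 fell past the threshold of an adjusted p under 0.05 (limma, Benjamini-Hochberg adjustment over all genes tested). No member rose past it, although 8 were higher (23.5%, against 15.9% of all genes tested) and 5 lower (14.7%, against 17.8%) at an unadjusted p under 0.05, together 38.2% against 33.8%. The 2 members called are 5.88% of 34, against 10.6% of all genes tested called in either direction (5.46% lower and 5.18% higher). The median log2 change of the 34 genes was 0.49, against −0.07 for all genes tested, and 24 of 34 changes lay above 0 (70.6%, against 46.9%). In 22 members both WT pristane libraries lay above the PBS library (64.7%, against 37.3% of all genes tested), and in 9 both lay below it (26.5%, against 44.5%). These counts include Trib3 among the higher and Derl3 among the lower genes, each admitted to the test only through the group where it was high. Without WT pristane replicate 2 the median was 0.31 (all genes −0.05). With any 1 of the 4 pristane libraries left out, no gene in the whole table passed, while 2755 to 3755 genes had an unadjusted p under 0.05 (limma).

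**Figure D2:**
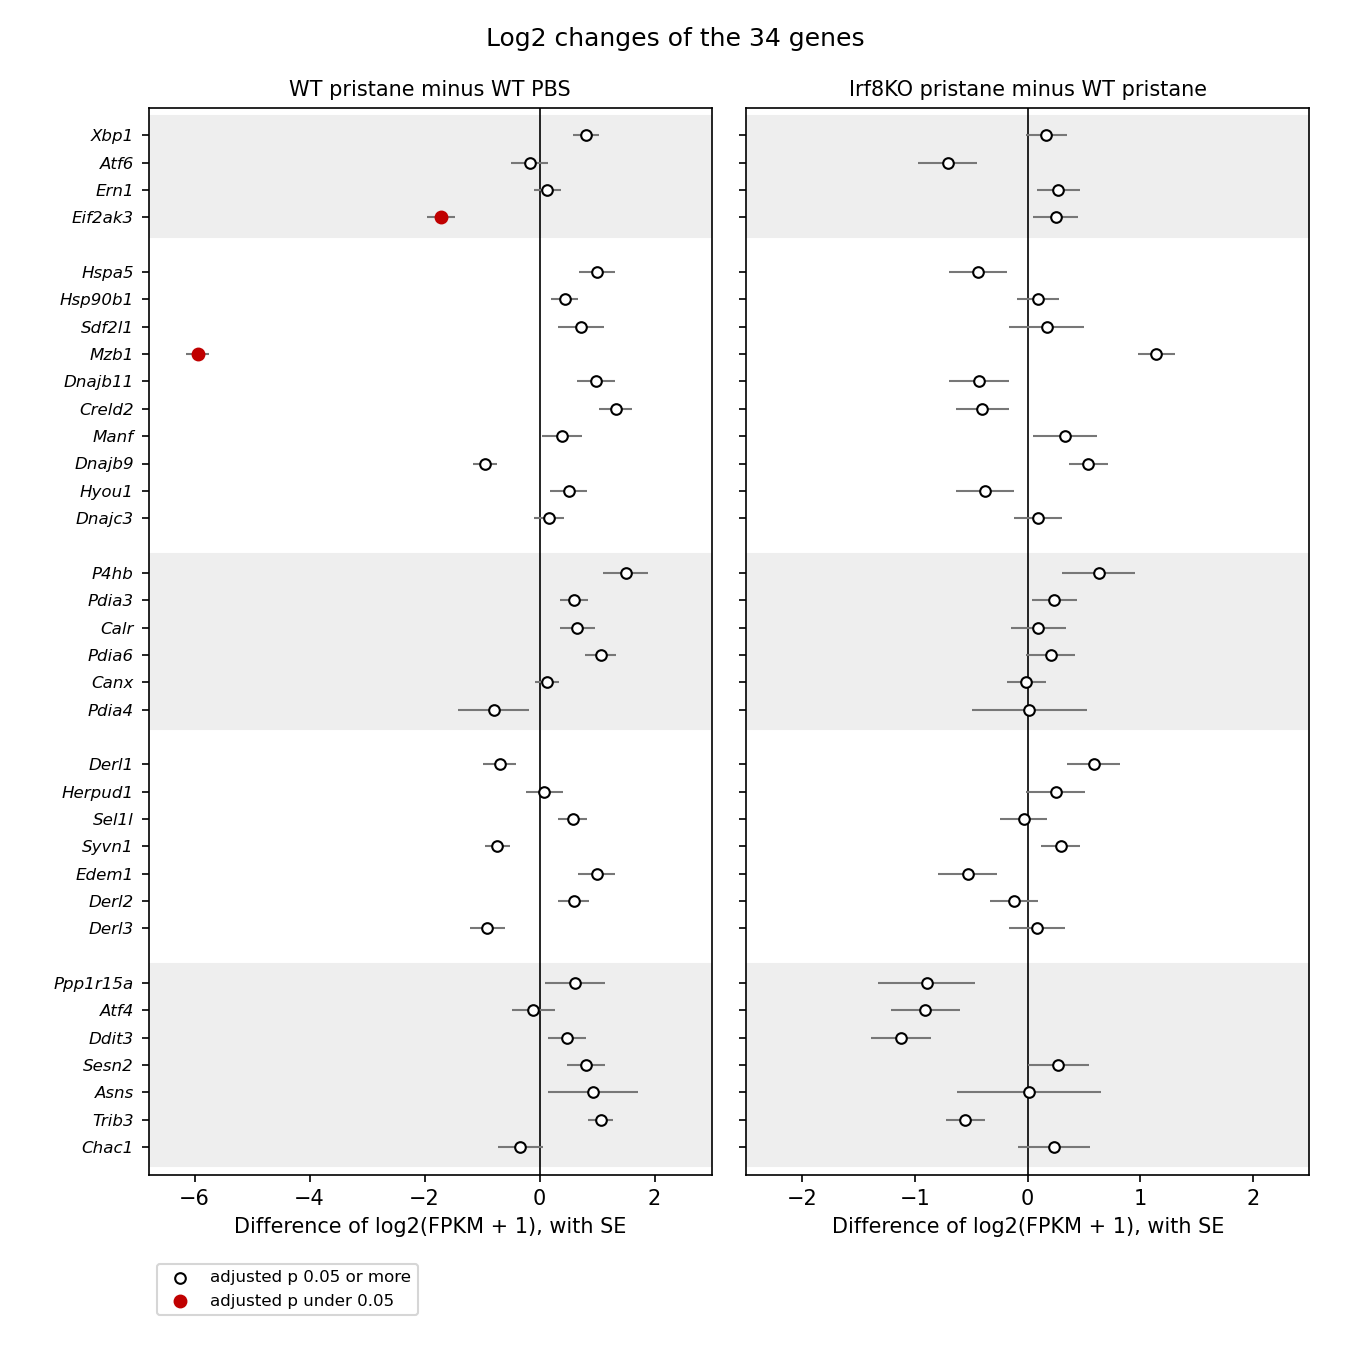
Difference of mean log2(FPKM + 1) with its standard error for each of the 34 genes, WT pristane minus WT PBS on the left and Irf8KO pristane minus WT pristane on the right; filled red points have an adjusted p under 0.05. Mzb1 and Eif2ak3 are the filled points on the left, and no point is filled on the right.

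Of the sensors, Eif2ak3, the ER kinase that phosphorylates the initiation factor eIF2, was the one that fell. It stood at 6.36 FPKM with PBS, 1.39 and 1.11 FPKM in WT pristane, and 1.82 and 1.53 FPKM in the Irf8KO-labelled libraries. All 4 pristane libraries lay far below the PBS library, and the pristane groups lay close together. The mean was 5.08 times lower in WT pristane than with PBS (log2 change −1.71 ± 0.24 SE, adjusted p = 0.036). The call was lost with a pseudocount of 0.1 (adjusted p = 0.0548), with the 2 groups fitted alone (0.133) and with any pristane library left out (log2 change −1.80 to −1.62, adjusted p 0.0796 to 0.138). At these depths such a level rests on few fragments per kilobase. In GENCODE M21 its exons share 221 bases with those of Gm43292 on the opposite strand.

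The other sensors gave no call. Ern1, the kinase and nuclease that splices Xbp1, stood at 4.71 FPKM with PBS, 5.18 and 5.33 in WT pristane, and 6.14 and 6.99 in the Irf8KO-labelled libraries. Its groups were ordered without overlap but differed by little (log2 change after pristane in WT 0.13, 95% interval −0.53 to 0.79). Atf6, the membrane-bound precursor factor, stood at 9.73 FPKM with PBS, 7.55 and 9.59 in WT pristane, and 5.75 and 4.01 in the Irf8KO-labelled libraries. The lowest values of Atf6 were those of the Irf8KO-labelled libraries (log2 change against WT pristane −0.71 ± 0.26 SE, adjusted p = 0.246).

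Xbp1, the factor that raises chaperone and degradation genes once spliced, stood at 69.2 FPKM with PBS, 108 and 136 FPKM in WT pristane, and 134 and 139 FPKM in the Irf8KO-labelled libraries. Every pristane library was above the PBS library, and the pristane groups overlapped. The log2 change in WT was 0.80 ± 0.22 SE (adjusted p = 0.0959), with a 95% interval from 0.18 to 1.42. Values per gene do not separate spliced from unspliced Xbp1.

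Among the 10 genes of the Hspa5 chaperone system, 1 fell (Mzb1) and none rose past the threshold, against 10.6% of all genes tested called in either direction. In 8 of the 10 both WT pristane libraries lay above the PBS library, against 37.3% of all genes tested. Hspa5, the main ER chaperone of the Hsp70 family and the usual marker of the unfolded protein response, stood at 162 FPKM with PBS, 273 and 381 FPKM in WT pristane, and 211 and 268 FPKM in the Irf8KO-labelled libraries. All pristane libraries exceeded the PBS library, with the WT pristane libraries the highest. The mean was 2.02 times higher in WT pristane than with PBS (log2 change 0.99 ± 0.31 SE, adjusted p = 0.119).

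Creld2, a small ER protein induced by stress, had the smallest p of the chaperone genes that were higher. It stood at 25.4 FPKM with PBS, 55.9 and 75.6 in WT pristane, and 43.7 and 54.8 in the Irf8KO-labelled libraries. Its log2 change in WT was 1.32 ± 0.29 SE (adjusted p = 0.0651), and it passed when only genes with a mean of at least 5 FPKM were tested (adjusted p = 0.0398). Dnajb11, which feeds unfolded chains to Hspa5, stood at 33.8 FPKM with PBS, 55.3 and 83.3 in WT pristane, and 54.6 and 45.8 in the Irf8KO-labelled libraries (log2 change in WT 0.98, adjusted p = 0.128).

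Other chaperone genes lay nearer to the PBS level. Hsp90b1 (Grp94), the ER member of the Hsp90 family, stood at 94.3 FPKM with PBS, 118 and 138 in WT pristane, and 124 and 150 in the Irf8KO-labelled libraries. Sdf2l1, which works with Hspa5 and Dnajb11, stood at 58.0 FPKM with PBS, 74.2 and 124 in WT pristane, and 93.1 and 125.5 in the Irf8KO-labelled libraries. For both genes the PBS library was the lowest of the 5, and replicate 2 lay above replicate 1 in each pristane group. Manf, a secreted folding factor (21.7 FPKM with PBS), the nucleotide exchange factor Hyou1 (17.6) and the co-chaperone Dnajc3 (12.1) had log2 changes in WT of 0.39, 0.51 and 0.17, with adjusted p-values of 0.473, 0.327 and 0.680.

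Dnajb9 (ERdj4), a co-chaperone that holds Ern1 inactive, went the other way from Hspa5. It stood at 37.9 FPKM with PBS, 19.7 and 18.7 FPKM in WT pristane, and 25.9 and 31.0 FPKM in the Irf8KO-labelled libraries. The PBS library was the highest and the WT pristane pair the lowest, with no overlap between any groups. The log2 change in WT was −0.95 ± 0.21 SE (adjusted p = 0.0676).

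Mzb1, which helps antibody-producing cells fold immunoglobulin, had the largest change of the 34 genes. It stood at 261 FPKM with PBS, 3.28 and 3.25 FPKM in WT pristane, and 8.04 and 8.79 FPKM in the Irf8KO-labelled libraries. It was the most highly expressed of the 34 genes with PBS and among the less expressed after pristane. The mean was 80.1 times lower in WT pristane than with PBS (log2 change −5.94 ± 0.20 SE, adjusted p = 0.0155), and the log2 change stayed between −5.95 and −5.94 with any pristane library left out, where the adjusted p was 0.0726 to 0.116; it was 0.12 with the 2 groups fitted alone. In GENCODE M21 its exons share up to 459 bases with those of SPATA24 on the same strand.

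B cell markers moved with Mzb1. The 10 genes, led by the antigen receptor chains Cd79a and Cd79b, summed to 2657 FPKM with PBS, 42.8 and 14.4 FPKM in WT pristane, and 196 and 107 FPKM in the Irf8KO-labelled libraries. None was listed at 0, and all 10 fell past the threshold after pristane in WT. The 7 plasma cell genes did not move as 1 group. The list summed to 77.3 FPKM with PBS, 96.6 and 58.3 in WT pristane, and 34.6 and 11.4 in the Irf8KO-labelled libraries. The surface proteoglycan Sdc1, with 2.00 FPKM with PBS and 67.3 and 24.0 in WT pristane, made up much of the WT pristane sums. Tnfrsf13b (TACI), which B cells also carry, stood at 38.5 FPKM with PBS and 1.51 and 6.73 in WT pristane (adjusted p = 0.112), and the factor Irf4 fell from 18.1 FPKM to 1.62 and 0.850 FPKM (adjusted p = 0.0292). Slamf7 rose from 3.32 FPKM to 11.3 and 13.4 FPKM (adjusted p = 0.0428), and the antibody joining chain Igj stood at 9.48 FPKM with PBS and 7.86 and 8.03 in WT pristane. Prdm1 stood at 5.91 FPKM with PBS and 6.94 and 4.55 in WT pristane, and Tnfrsf17 (BCMA) was listed at 0 in 4 of the 5 libraries. The part of B cell content in the fall of Mzb1 was not tested.

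**Figure D3:**
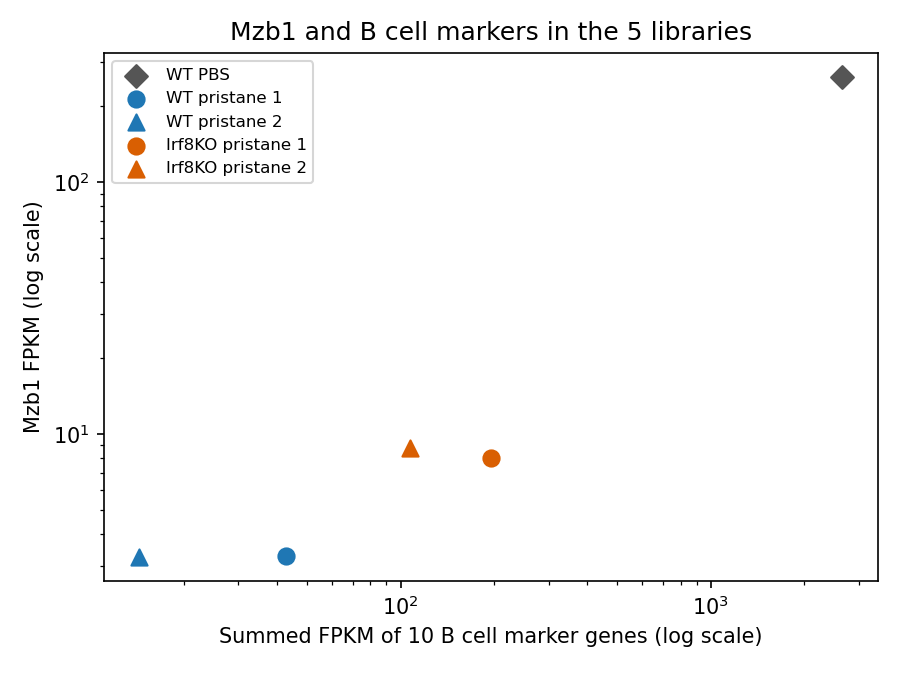
Mzb1 FPKM (vertical, log scale) against the summed FPKM of 10 B cell marker genes (horizontal, log scale), 1 point per library. The PBS library is at the upper right, the Irf8KO-labelled libraries in the middle and the WT pristane libraries at the lower left.

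The promoters of chaperone and degradation genes are shown because some of these members hold a known control sequence. The members were listed as known genes of this response, so the share that holds the sequence is not independent of their selection. It is given as a description. The ER stress response element (ERSE), the site read by Atf6 and spliced Xbp1 together with the factor NF-Y, reads CCAAT, then 9 bases of any kind, then CCACG. RefSeq promoters (GRCm38.p6; 250 bases before to 50 after the start site) were found for 29 of the 34 genes and searched on both strands. The element was present in 9 of the 29 (31.0%), against 39 of all 32851 promoters in the table (0.119%). Each is printed 5′ to 3′ in its own orientation, with the fixed letters in capitals.
Hspa5, chr2:34772025-34772043 (+ strand): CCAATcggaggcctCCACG
Calr, chr8:84847075-84847093 (+ strand): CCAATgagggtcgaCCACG
Derl3, chr10:75893242-75893260 (- strand): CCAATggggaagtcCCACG
Hsp90b1 distal, chr10:86705638-86705656 (- strand): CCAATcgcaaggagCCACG
Hsp90b1 proximal, chr10:86705533-86705551 (+ strand): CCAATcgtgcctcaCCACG
Canx, chr11:50325800-50325818 (- strand): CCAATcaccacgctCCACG
Pdia6, chr12:17266491-17266509 (+ strand): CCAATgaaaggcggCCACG
Dnajc3, chr14:118937827-118937845 (+ strand): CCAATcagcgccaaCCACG
Creld2, chr15:88819520-88819538 (- strand): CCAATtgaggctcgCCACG
Syvn1, chr19:6046532-6046550 (+ strand): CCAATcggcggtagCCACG
The middle letters differed from gene to gene, and the elements ended between 26 bases (Syvn1) and 194 bases (the distal element of Hsp90b1) before the start site. The related ERSE-II, ATTGG and CCACG around 1 base of any kind, was present in 12 promoters of the table (0.0365%), among them those of Herpud1 and Dnajb11. Neither the Xbp1-type element TGACGTGG (0.676% of all promoters) nor the Atf4-type element TGATGNAAT (0.965%) was present in any of the 29, which says only that these letters are not in these windows. The motifs are not independent: both ERSE forms and, read on the other strand, TGACGTGG hold CCACG, and the ATTGG of ERSE-II is CCAAT on the other strand.

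Of the 9 genes with the ERSE, 7 had a log2 change above 0 after pristane in WT, while Syvn1 and Derl3 lay below 0. Of the 20 genes with a promoter but no ERSE, 15 lay above 0, against 46.9% of all genes tested. The 220 bases before the start of Hspa5, Creld2 and Syvn1 are given because these genes hold the element and lay on opposite sides of the PBS library, with the element in capitals.
Hspa5, chr2:34771870-34772089 (+ strand): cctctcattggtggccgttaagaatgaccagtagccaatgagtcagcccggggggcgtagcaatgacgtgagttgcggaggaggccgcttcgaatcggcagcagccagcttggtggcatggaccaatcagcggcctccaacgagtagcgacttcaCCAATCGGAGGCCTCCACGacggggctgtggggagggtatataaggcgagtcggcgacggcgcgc
Creld2, chr15:88819426-88819645 (+ strand): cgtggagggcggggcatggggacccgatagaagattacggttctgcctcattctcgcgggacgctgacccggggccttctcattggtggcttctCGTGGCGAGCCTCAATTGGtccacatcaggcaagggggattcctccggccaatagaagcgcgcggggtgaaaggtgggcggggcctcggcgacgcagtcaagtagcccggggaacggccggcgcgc
Syvn1, chr19:6046356-6046575 (+ strand): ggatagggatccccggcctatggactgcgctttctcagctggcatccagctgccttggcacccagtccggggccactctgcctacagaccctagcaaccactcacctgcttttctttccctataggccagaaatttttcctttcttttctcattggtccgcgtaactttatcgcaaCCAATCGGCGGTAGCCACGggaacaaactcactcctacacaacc
Hspa5 and Creld2 were higher in both WT pristane libraries than with PBS, and Syvn1 was lower in both. Among the genes with the element, leaving aside Derl3, which passed the filter only through the PBS library, the log2 change in WT ran from −0.73 (Syvn1) to 1.32 (Creld2), and none was called. A match describes the sequence and does not show binding.

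In the calnexin cycle and among the disulfide isomerases no member was called, and 4 of 6 were above and 1 below the PBS level in both WT pristane libraries, against 37.3% and 44.5% of all genes tested. P4hb (Pdia1), the most abundant disulfide isomerase and the most highly expressed of the 34 genes on average, stood at 140 FPKM with PBS, 312 and 503 FPKM in WT pristane, and 534 and 703 FPKM in the Irf8KO-labelled libraries. The 3 groups did not overlap and followed that order. Its mean was 2.91 times higher in WT pristane than with PBS (log2 change 1.50 ± 0.39 SE, adjusted p = 0.0879) and 4.42 times higher in the Irf8KO-labelled libraries than with PBS (log2 change 2.12 ± 0.39 SE, adjusted p = 0.0552). The second passed with a pseudocount of 5 (adjusted p = 0.0492) and among genes with a mean of at least 5 FPKM (adjusted p = 0.0289).

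Pdia6, an isomerase that also acts on the sensor Ern1, stood at 61.6 FPKM with PBS, 113 and 149 in WT pristane, and 137 and 164 in the Irf8KO-labelled libraries (log2 change in WT 1.06 ± 0.27 SE, adjusted p = 0.0821). Pdia3, the isomerase bound to the lectins, stood at 126 FPKM with PBS, 171 and 215 in WT pristane, and 209 and 243 in the Irf8KO-labelled libraries. Calr (calreticulin), the soluble lectin that also stores calcium, stood at 109 FPKM with PBS, 143 and 207 in WT pristane, and 172 and 196 in the Irf8KO-labelled libraries. For these 3 genes the PBS library was the lowest of the 5 and the pristane groups overlapped. Canx (calnexin), the membrane-bound lectin, hardly varied, from 74.3 FPKM in WT pristane replicate 1 to 89.3 FPKM in replicate 2 (log2 change in WT 0.13, 95% interval −0.45 to 0.70).

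Pdia4 (ERp72) stood out from the other isomerases by its spread. It stood at 116 FPKM with PBS, 42.3 and 103 FPKM in WT pristane, and 54.9 and 81.2 FPKM in the Irf8KO-labelled libraries. The PBS library was the highest, but the WT pristane replicates differed 2.43-fold from each other, and the log2 change of −0.80 had a 95% interval from −2.53 to 0.93 (adjusted p = 0.416).

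**Figure D4:**
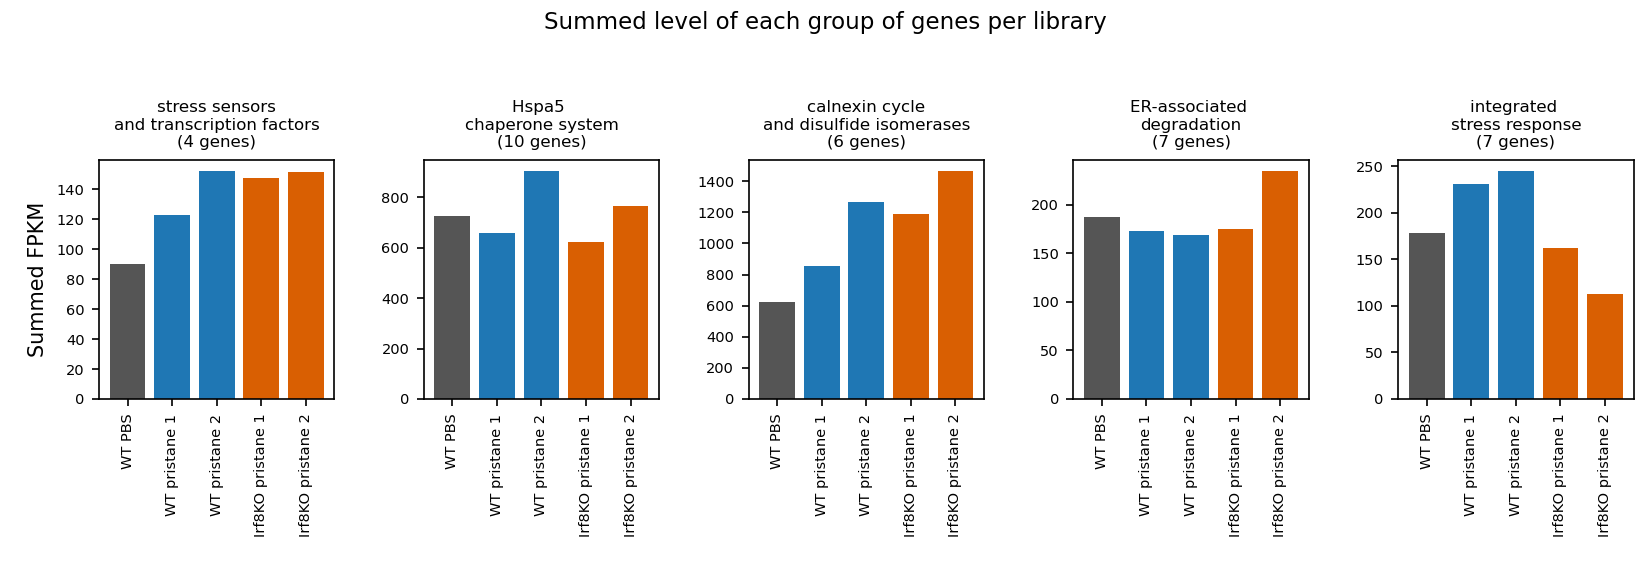
Summed FPKM of the genes of each role in each library (bars start at 0; 1 bar per library, no error bars). The calnexin cycle and isomerase sum is lowest with PBS (627 FPKM) and highest in Irf8KO pristane replicate 2 (1466 FPKM), and the integrated stress response sum is higher in both WT pristane libraries than in the other 3.

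The 7 genes of ER-associated degradation, which carries misfolded proteins back to the cytosol for destruction, gave no call. In both WT pristane libraries 3 lay above and 3 below the PBS level (all genes tested 37.3% and 44.5%), 1 of the latter being Derl3, and the median log2 change was 0.09. Edem1, a lectin that hands misfolded glycoproteins over for degradation, stood at 8.11 FPKM with PBS, 13.8 and 21.2 in WT pristane, and 11.4 and 11.6 in the Irf8KO-labelled libraries (log2 change in WT 0.99 ± 0.32 SE, adjusted p = 0.124). Sel1l, the scaffold of the main ubiquitin ligase complex, stood at 13.3 FPKM with PBS, 21.5 and 19.3 in WT pristane, and 17.3 and 22.7 in the Irf8KO-labelled libraries. Its partner Syvn1 (Hrd1), the ligase itself, ran opposite, with 21.8 FPKM with PBS, 13.5 and 11.9 in WT pristane, and 16.6 and 15.0 in the Irf8KO-labelled libraries (log2 change in WT −0.73 ± 0.21 SE, adjusted p = 0.104). Scaffold and ligase thus lay on opposite sides of the PBS library in all 4 pristane libraries.

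The derlins, membrane proteins of the exit channel, did not move together either. Derl1 stood at 81.5 FPKM with PBS, 47.3 and 53.0 in WT pristane, and 63.0 and 90.4 in the Irf8KO-labelled libraries. Derl2 stood at 7.22 FPKM with PBS, 10.9 and 11.9 in WT pristane, and 9.03 and 12.0 in the Irf8KO-labelled libraries. WT pristane was thus below the PBS level for Derl1 and above it for Derl2. Derl3, known from secretory cells, was near the detection limit, with 1.56 FPKM with PBS and 0.176 to 0.757 FPKM in the pristane libraries. Herpud1, which organises the complex and responds strongly to ER stress, stood at 54.5 FPKM with PBS, 65.8 and 51.0 in WT pristane, and 57.6 and 82.6 in the Irf8KO-labelled libraries, with WT pristane on both sides of the PBS value.

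Of the 7 integrated stress response genes none was called after pristane in WT, and 5, Trib3 among them, were above the PBS level in both WT pristane libraries, against 37.3% of all genes tested. Trib3, a pseudokinase induced by Atf4 and Ddit3 that restrains Atf4, stood at 0.227 FPKM with PBS, 1.69 and 1.44 in WT pristane, and 0.616 and 0.887 in the Irf8KO-labelled libraries. Since Trib3 reached 1 FPKM only in WT pristane, the filter favoured a higher value there, and its log2 change of 1.06, at a level near that of single fragments, is given as a description. Sesn2 (sestrin 2), which restrains mTORC1 signalling, stood at 4.87 FPKM with PBS, 10.4 and 8.24 in WT pristane, and 9.33 and 13.8 in the Irf8KO-labelled libraries. All 4 pristane libraries were higher than the PBS library for both genes.

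Asns, the asparagine synthetase raised by Atf4 in amino acid shortage, stood at 1.47 FPKM with PBS, 1.69 and 7.17 in WT pristane, and 2.77 and 4.94 in the Irf8KO-labelled libraries. The WT pristane replicates differed 4.23-fold, so the log2 change of 0.93 had a 95% interval from −1.26 to 3.11. Chac1, an enzyme that breaks down glutathione, stood between 0.143 and 1.03 FPKM in all 5 libraries, and no difference was detectable at this depth.

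Irf8KO pristane against WT pristane asks which genes differed in the Irf8KO-labelled libraries under the same oil. Here 0 of the 34 genes were called (limma), against 0.027% of all genes tested (0.0% higher and 0.027% lower). At an unadjusted p under 0.05 they counted 2 higher (5.88%, against 10.5%) and 3 lower (8.82%, against 10.1%), together 14.7% against 20.6%. The median log2 change was 0.09, against 0.00 for all genes tested, with 21 of 34 above 0 (61.8%, against 49.1%). It was −0.13 when each library was rescaled to a common sum, which moved the median of all genes to −0.18, and ran from −0.05 to 0.23 with 1 pristane library left out, negative without WT pristane replicate 1 or Irf8KO pristane replicate 2. The groups did not overlap for 7 genes that were higher (20.6%, against 26.1% of all genes tested) and 9 that were lower (26.5%, against 27.1%), shares near the background. Trib3, admitted to the test only through WT pristane, is in these 9 and in the 3 lower at an unadjusted p under 0.05.

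Of the integrated stress response genes, 4 of 7 were lower without overlap and none was higher, against 27.1% and 26.1% of all genes tested; 1 of the 4, Trib3, entered the test only through WT pristane. Ddit3 (CHOP), the factor tied to cell death under prolonged stress, stood at 14.8 and 15.0 FPKM in WT pristane and at 4.94 and 7.95 FPKM in the Irf8KO-labelled libraries, with 10.4 FPKM with PBS. The WT pristane pair was nearly identical and the other pair was below the PBS level. Its log2 change was −1.12 ± 0.27 SE (unadjusted p = 0.0139, adjusted p = 0.156), with a 95% interval from −1.87 to −0.38.

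Atf4, the factor that drives this response, stood at 50.4 and 86.9 FPKM in WT pristane and at 35.5 and 34.2 FPKM in the Irf8KO-labelled libraries, with 71.5 FPKM with PBS. The PBS value lay between the WT pristane replicates, and both Irf8KO-labelled libraries lay below all 3 (log2 change −0.91 ± 0.31 SE, adjusted p = 0.227). Atf4 is controlled largely at translation, which RNA values do not show. Ppp1r15a (Gadd34), the phosphatase subunit that ends the translational block, stood at 151 and 126 FPKM in WT pristane, 109 and 49.7 in the Irf8KO-labelled libraries, and 89.5 with PBS (log2 change −0.90 ± 0.43 SE, adjusted p = 0.335). Trib3 was lower as well (log2 change −0.55), against the group through which it passed the filter. Sesn2, Asns and Chac1 overlapped between the pristane groups.

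**Figure D5:**
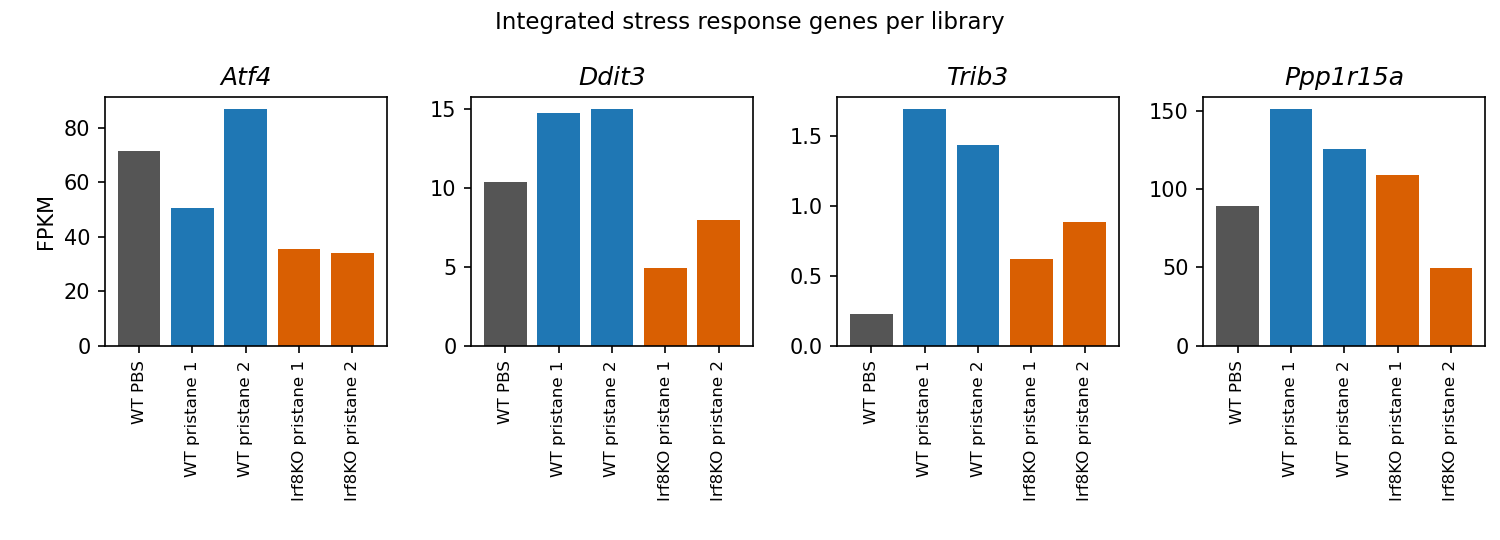
FPKM of Atf4, Ddit3, Trib3 and Ppp1r15a in each library (bars start at 0; each panel has its own scale, 1 bar per library, no error bars). In each panel both Irf8KO-labelled libraries are below both WT pristane libraries, because the panels show the 4 of 7 integrated stress response genes with that pattern. Sesn2, Asns and Chac1, which overlapped between the pristane groups, are not drawn. Trib3 entered the test only through WT pristane.

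Of the 10 chaperone genes 3 were lower and 2 higher in the Irf8KO-labelled libraries without overlap, and of the 7 degradation genes 1 was lower and 2 higher (all genes tested 27.1% lower and 26.1% higher), with none called. The following genes were picked for their pattern after their values were seen, and it is given as a description. Hspa5, Dnajb11, Creld2 and Edem1, which were higher in WT pristane than with PBS, were lower in the Irf8KO-labelled libraries than in WT pristane without overlap, by log2 changes of −0.44, −0.43, −0.40 and −0.53 (adjusted p 0.342 to 0.428). Dnajb9, Syvn1 and Derl1, which were lower in WT pristane than with PBS, were higher in the Irf8KO-labelled libraries, by 0.54, 0.29 and 0.58 (adjusted p 0.210 to 0.418). Both comparisons use the same WT pristane libraries, so these opposite signs are not independent of each other. Mzb1 had the smallest p (log2 change 1.14 ± 0.17 SE, adjusted p = 0.0974), while the summed B cell markers were 196 and 107 FPKM in the Irf8KO-labelled libraries against 42.8 and 14.4. Of the 6 calnexin cycle and isomerase genes only P4hb was separated between the groups (log2 change 0.63 ± 0.32 SE, adjusted p = 0.357).

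Large peritoneal macrophage markers, among them the lipoxygenase Alox15, and dividing cell markers moved with this contrast too. The 10 macrophage genes summed to 116 and 148 FPKM in WT pristane and to 1299 and 2031 FPKM in the Irf8KO-labelled libraries, and 9 of the 10 were higher there without overlap. The 6 dividing cell genes summed to 9.84 and 8.62 FPKM against 72.7 and 58.6 FPKM. Inflammatory monocyte genes were lower without overlap in 6 of 8 cases and higher in 1, Fn1 (log2 change 1.10). T and natural killer cell genes were lower without overlap in 8 of 8 cases and dendritic cell genes in 5 of 7. Of the dendritic cell genes, Flt3, Xcr1, Clec9a and Siglech entered the test only through WT pristane. Neutrophil genes were higher without overlap in 5 of 10 cases and lower in 2. Of all genes tested, 27.1% were lower and 26.1% higher without overlap. The 8 monocyte genes summed to 2549 and 6533 FPKM in WT pristane and to 2620 and 3015 FPKM in the Irf8KO-labelled libraries, so the sums overlapped. The part of these cell types in the values of the 34 genes was not tested.

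Irf8KO pristane against WT PBS shares its PBS library with the first comparison, so its values are set beside it only as values. Mzb1 fell by 4.80 on the log2 scale (adjusted p = 0.0241) and Eif2ak3 by 1.46 (adjusted p = 0.0483), and no member rose (limma). The 2 called members are 5.88% of 34, against 8.54% of all genes tested (3.81% higher and 4.72% lower, or 424 and 525 genes, which became 233 and 588 with libraries rescaled to a common sum). At an unadjusted p under 0.05, 6 were higher (17.6%, against 15.6%) and 3 lower (8.82%, against 18.1%), together 26.5% against 33.7%. All libraries of the pair lay above the PBS library for 21 genes (61.8%, against 40.7%) and below it for 9 (26.5%, against 46.0%). Derl3, admitted to the test only through the PBS library, is among these 9. Of the alternatives that tested Eif2ak3, its call held only with a pseudocount of 5 (adjusted p = 0.0311) and was lost in the others (0.0505 to 0.206). The call of Mzb1 was lost with the 2 groups fitted alone (0.0613) and with any pristane library left out (0.0642 to 0.165). The median log2 change was 0.43, against −0.05 for all genes tested, with 22 of 34 above 0 (64.7%, against 47.3%). Pdia6 (log2 change 1.27, adjusted p = 0.0657), Xbp1 (0.97, adjusted p = 0.0751) and Sesn2 (1.08, adjusted p = 0.117) were among the higher members.

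Other genes of the same machinery were read in 8 lists of related genes, of which 134 of 139 reached the level needed for the test. After pristane in WT 4 rose and 3 fell, while of all genes tested 5.18% rose and 5.46% fell. Ero1l, the oxidase that recharges disulfide isomerases and responds to low oxygen, rose from 5.06 FPKM with PBS to 46.6 and 43.4 FPKM in WT pristane, with 35.5 and 42.8 in the Irf8KO-labelled libraries (log2 change in WT 2.92, adjusted p = 0.0247). Its paralogue Ero1lb, known from insulin-producing cells, fell from 30.3 FPKM to 6.58 and 6.71 FPKM, with 4.06 and 4.24 in the Irf8KO-labelled libraries (log2 change −2.04, adjusted p = 0.0291). The pair therefore exchanged rank, with Ero1lb the higher with PBS and Ero1l the higher in all 4 pristane libraries; Ero1lb was named after its values were seen.

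Tmbim6 (Bax inhibitor 1), an ER membrane protein that limits Ern1 and calcium release, rose from 98.9 FPKM with PBS to 248 and 241 FPKM in WT pristane, with 202 and 197 in the Irf8KO-labelled libraries (log2 change in WT 1.30, adjusted p = 0.0348). In the list of 20 other Atf4 program genes, 16 were tested, of which 1 rose and 2 fell (all genes tested 5.18% and 5.46%). Slc3a2, the heavy chain of amino acid transporters, rose from 27.7 FPKM to 90.2 and 107 FPKM in WT pristane and stood at 49.6 and 47.3 FPKM in the Irf8KO-labelled libraries. Phgdh, the first enzyme of serine synthesis, fell from 31.7 FPKM to 1.49 and 1.00 FPKM. The other gene of the list that fell was Pck2, named after its values were seen. Atf3, a stress-induced factor next to Ddit3 in this response, stood at 124 FPKM with PBS, 65.0 and 101 in WT pristane, and 37.1 and 34.2 in the Irf8KO-labelled libraries.

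The translocon and signal peptidase, which admit new chains to the ER, gave 0 calls among 21 genes after pristane in WT (limma, median log2 change 0.35), N-glycosylation 0 of 16 (−0.02), other degradation genes 0 of 20 (0.22) and aminoacyl-tRNA synthetases 0 of 12 (−0.05). Sec61b, a subunit of the channel, stood at 147 FPKM with PBS, 252 and 212 in WT pristane, and 283 and 247 in the Irf8KO-labelled libraries. Among cytosolic heat shock chaperones 1 of 14 rose, the small heat shock protein Hspb1, from 6.18 FPKM to 34.8 and 26.7 FPKM (log2 change 2.13, adjusted p = 0.0313). Hspa8, the constitutive cytosolic Hsp70, stood at 773 FPKM with PBS, 1097 and 1256 in WT pristane, and 784 and 765 in the Irf8KO-labelled libraries. Beside these list counts, 5.18% of all genes tested rose and 5.46% fell after pristane in WT. No gene of these 8 lists was called between the pristane groups, against 0.027% of all genes tested.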

How the data were processed

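RNA of 5 libraries was analysed. The deposited values are FPKM, calculated by the authors per gene symbol; Cufflinks 2.2.1, Cuffnorm, TopHat2 2.0.10 and BWA appear in the submitters' processing notes, with no role or order. Sources used here do not give the build, annotation, strand use or scaling between libraries. Depth was estimated from products of low values and length for genes with 1 GENCODE M21 transcript.

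All 11117 genes with at least 1 FPKM in 1 library entered 1 limma-trend model (limma version 3.58.1, R version 4.3.3) of log2(FPKM + 1) on 3 group means, 2 residual and 1.99 prior degrees of freedom. Log2 changes are differences on that scale, which understates low genes. Tests were 2-sided, with Benjamini-Hochberg adjustment across the whole table. The fit was tested on simulated data. Alternatives changed pseudocount, filter, scaling, variance prior and libraries. Members and lists were chosen with earlier results of these data known. All 34 members are named; from other lists, the smallest p per comparison and the 2 highest means. Emr1 was read for Adgre1. In GENCODE M21, exons of Ddit3, Derl2 and Syvn1 overlap opposite-strand exons of Mars, Mis12 and Mrpl49 by at most 68, 231 and 91 bases. Exons of Hsp90b1 and Manf overlap opposite-strand exons of 1810014B01Rik and 4930524O07Rik by at most 270 and 166 bases. Further overlaps of members are not listed. Smart-seq2 does not keep strand.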

Additional observations from a re-analysis of the deposited data

How the results depend on the processing

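The count of members that fell after pristane in WT, 2 in the fit reported, was 1 with a pseudocount of 0.1, 1 among genes with a mean of at least 5 FPKM (where Eif2ak3 was not tested and 1 member, Creld2, rose), and 0 when the 2 groups were fitted alone or any pristane library was left out (0 to 0). For Irf8KO pristane against WT PBS the count of 2 was 1 with a pseudocount of 0.1, no filter, a mean of at least 5 FPKM, rescaling to a common sum, median-ratio scaling or no variance trend, and 0 with the 2 groups alone or any pristane library left out (0 to 0); 1 member rose with a pseudocount of 5 (P4hb) and 2 with a mean of at least 5 FPKM (P4hb and Pdia6). With a library left out, the limma fit rests on the spread of the other groups, and no gene of the table passed. The median log2 change in WT ran from 0.31 to 0.53 with a library left out. That of Irf8KO pristane against WT PBS was 0.28 with a pseudocount of 5 and 0.25 after rescaling, where the median of all genes was −0.27, so that the difference from it was 0.52 against 0.48 in the fit reported. That of Irf8KO pristane against WT pristane was −0.13 after rescaling, 0.04 above all genes. The cause of these shifts was not tested.

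The direction was the same under every alternative run for 31 of 34 members after pristane in WT (not Canx, Herpud1 and Atf4), for 29 in Irf8KO pristane against WT PBS (not Canx, Chac1, Derl1, Hyou1 and Ppp1r15a), and for 21 between the pristane groups. Over all genes, the calls after pristane in WT were 576 higher and 607 lower, 372 and 901 with no filter, 808 and 368 with a mean of at least 5 FPKM, 566 and 901 with a pseudocount of 5, 513 and 333 with 0.1, and 0 with the 2 groups alone (2767 at an unadjusted p under 0.05). For Irf8KO pristane against WT PBS they were 424 and 525, 233 and 588 after rescaling, 280 and 343 without a variance trend, and 0 with the 2 groups alone (4044 at an unadjusted p under 0.05). Between the pristane groups they were 0 and 3, 105 and 137 with a mean of at least 5 FPKM, 15 and 33 with median-ratio scaling, 11 and 29 without a variance trend, 207 and 224 with the 2 groups alone, 0 and 5 with a pseudocount of 5, and 0 with 0.1, no filter or rescaling (2234 to 2586 at an unadjusted p under 0.05).

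Replicate numbers are shared by the pristane groups, but deviations of same-numbered libraries were hardly correlated (r = 0.0448 across 11117 genes, which are not independent). A correlation over all genes cannot decide whether same-numbered libraries were handled together. The fit reported treats them as unpaired. With a replicate block over the 4 pristane libraries 1 member was called, Mzb1, higher in the Irf8KO-labelled libraries (log2 change 1.14, adjusted p = 0.0423), with 384 genes higher and 415 lower in all. Low depth limits Chac1, Derl3 and Trib3.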

Other observations

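Replicate 2 exceeded replicate 1 for most of the 34 genes in both pristane groups. In WT pristane 23 of 34 were higher in replicate 2 (67.6%, against 44.6% of all genes tested), with a median log2 difference of 0.25. In the Irf8KO-labelled libraries 27 of 34 were higher in replicate 2 (79.4%, against 49.6%), with a median of 0.29. The median change of these genes after pristane in WT was 0.49.

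Some further ER enzymes were separated between the pristane groups without being called, and were chosen after their values were seen. Prdx4, the peroxiredoxin of the ER, stood at 52.3 and 30.9 FPKM in WT pristane and 115 and 156 FPKM in the Irf8KO-labelled libraries, with 40.2 FPKM with PBS (log2 change 1.71, adjusted p = 0.130). Fkbp11, a prolyl isomerase of secretory cells, stood at 3.12 and 0.774 FPKM against 11.5 and 10.6 FPKM, with 15.6 FPKM with PBS (log2 change 2.15, adjusted p = 0.140). Ost4, a small subunit of the oligosaccharyltransferase, stood at 154 and 155 FPKM against 332 and 275 FPKM, with 215 FPKM with PBS (log2 change 0.97, adjusted p = 0.118).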
